A study of Macaca mulatta with 8 samples.

Results

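Nuclear pore and nuclear transport genes were described in rhesus macaque (Macaca mulatta) mural granulosa cells, the hormone-producing layer on the inside of the follicle's wall, after and before an ovulatory stimulus. The genes were those whose single platform symbol begins with NUP and a number, KPNA, KPNB, IPO and a number, XPO, TNPO or RANBP, which gave 43 of the 14132 genes measured. The VVM-GC group holds 4 samples from follicles stimulated with follicle-stimulating hormone (FSH) and then matured in vivo under human chorionic gonadotropin (hCG), the ovulatory stimulus. The PM-GC group holds 4 samples from follicles under FSH alone, so FSH is common to all 8 samples. Each sample was run on its own Affymetrix array. The source labels speak of granulosa cells of cumulus-oocyte complexes and the design text of mural cells, and the design text was followed. No label gives the time after hCG, the age of the animals or which animal each sample came from; samples may share animals, and p-values measure the spread between these samples, which may be partly technical.

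The nuclear pore is a ring-shaped channel through the nuclear envelope, built from nucleoporins. An outer ring of Y-shaped complexes and an inner ring form its scaffold, proteins rich in phenylalanine-glycine (FG) repeats fill the channel, filaments reach into the cytoplasm and a basket into the nucleus. Importins and exportins carry proteins and RNAs through it, and the GTPase RAN, bound to GTP in the nucleus, makes importins let go of cargo and exportins take it up. The pore and the envelope are taken apart and rebuilt at each division of an animal cell, and granulosa cells leave the cell cycle as the follicle ovulates and turns into the corpus luteum.

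Values are log2 intensities, and each gene is represented by its brightest probe set over all 8 arrays. Changes are VVM-GC minus PM-GC on the log2 scale, with standard errors (SE), from limma fitted over all genes with Benjamini-Hochberg adjustment; a gene passed at an adjusted p under 0.05. Array medians lay between 5.45 and 5.54, and arrays correlated at 0.975 to 0.984 within VVM-GC, 0.984 to 0.988 within PM-GC and 0.935 to 0.957 between the groups. Of the 43 genes, 8 had a mean below the lowest array median. Values after ± are SDs over the 4 arrays of a group. No gene is called absent, since the table carries no detection calls.

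After hCG the pore and transport genes moved both ways. NUP50, a nuclear basket protein that binds importin alpha and helps it release cargo, had the largest increase, 5.3-fold. The importers KPNB1 and IPO7 and the filament protein RANBP2 rose by less than 1.5-fold, and NUP160 of the outer ring rose 2.96-fold, in 1 of its 3 probe sets. NUP35 of the inner ring and the membrane protein NUP210 had the largest decreases, 2.09-fold and 2.06-fold. In all, 15 of the 43 genes (34.9%) passed, beside 23.8% of all 14132 genes. Of them 5 (11.6%) were higher, beside 11.3% of all genes, and 10 (23.3%) were lower, beside 12.5%. The groups did not overlap for 15 of the 43 (34.9%), beside 27.2% of all genes; 14 of those 15 also passed. Only 4 genes passed with a change of at least 2-fold, NUP50, NUP160, NUP35 and NUP210. The median change over the 43 genes was -0.07, beside -0.09 over all genes. Among the 16 structural subunits of the pore, 3 rose, 7 fell and 6 did not pass (median -0.43). Among the 22 importins, exportins and their close relatives, 2 rose, 3 fell and 17 did not pass (median -0.01, and -0.15 with all probe sets of a gene averaged). Leaving out 1 array at a time gave 0 to 2 higher and 2 to 5 lower carriers: 2 passed without VVM-GC array 1 or 2, 3 without any one PM-GC array, 4 without VVM-GC array 4 and 7 without VVM-GC array 3. Of the pore subunits 8 to 10 passed in these fits. None of the other 5 passed. Of the 35 genes above the array medians 14 passed (40.0%), beside 29.5% of all genes above them. The difference between these kinds of genes was not tested.

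Lists of other cell types and of cell division had the following levels, and their part in the results was not tested. Cell division genes, of which 11 were measured, had 10 lower (90.9%, beside 12.5% of all genes) and 1 higher after hCG. Their median log2 intensity per array was 7.08 to 7.15 in VVM-GC and 9.18 to 9.84 in PM-GC, with no overlap. MKI67, a marker of dividing cells, fell by 2.9952 (SE 0.20) in its brightest probe set and by 1.64 with its 3 sets averaged. The mitotic kinase gene CDK1 fell by 2.85 (SE 0.40) in its brightest set and by 1.41 with its 3 sets averaged. NCAPG, which helps to condense chromosomes, fell by 2.61, whereas TPX2, a spindle assembly factor, rose by 1.09. All 9 measured genes of granulosa identity fell, beside 12.5% of all genes. The largest of these changes were -2.08 for CYP19A1 and -1.90 for HSD17B1, both enzymes of estradiol synthesis. INHBA, a subunit of activin and inhibin, followed at -1.65. The call of AMH (-0.68) was lost without VVM-GC array 2 or PM-GC array 1 or 3. Of the 12 genes on this list FSHR, FOXL2 and LHCGR were not analysed here. The summed intensity of 8 leukocyte markers was 408.1 to 1268 in VVM-GC and 1324 to 1495 in PM-GC, with CSF1R lower and the other 7 not past. Without CSF1R the sum was 278.7 to 1042 in VVM-GC and 508.4 to 887.4 in PM-GC, so the groups overlapped. CD14 differed by 0.22 and CD68 by 0.84 in its brightest set (limma adjusted p = 0.0502), with a call that changed in 6 of 17 alternatives. The dimmer set of CD68, below the array medians, was lower, at -0.62 (limma adjusted p = 0.0394). Averaged over both sets CD68 changed by 0.11 (limma adjusted p = 0.659). The summed intensity of 4 erythrocyte markers was 360.7 to 1513 in VVM-GC and 1691 to 2337 in PM-GC, with HBA and ALAS2 lower. The call of HBA was lost with 32 added to each intensity and without VVM-GC array 1 or 3 or PM-GC array 2, 3 or 4. That of ALAS2 was lost with its 2 probe sets averaged (-0.44, adjusted p = 0.085) and without VVM-GC array 1 or 2 or PM-GC array 3. The sums of 9 oocyte markers (691.2 to 961.2 in VVM-GC, 695.8 to 862.9 in PM-GC), 7 endothelial markers (356.4 to 958.0 in VVM-GC, 390.4 to 498.0 in PM-GC) and 5 theca and stroma markers (506.5 to 1061 in VVM-GC, 531.2 to 631.0 in PM-GC) overlapped between the groups. Of these 3 lists CYP17A1, a theca enzyme, was lower and no other gene passed. Its call was lost with its 2 probe sets averaged (-0.19, adjusted p = 0.289) and without VVM-GC array 1, 3 or 4 or PM-GC array 2, 3 or 4. The brightest were ZP4 and ZP1, VWF and PECAM1, and DCN and COL1A2, with changes of 0.31, -0.21, 1.26, 0.01, 0.92 and -0.49. Among leukocyte markers CSF1R and TYROBP were brightest (-2.09 and -0.09), and among erythrocyte markers HBB and HBA (-1.15 and -1.47). No listed marker was at 0 on the arrays. Fewer cells of a type and less RNA per cell cannot be told apart in bulk samples.

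**Figure D1:**
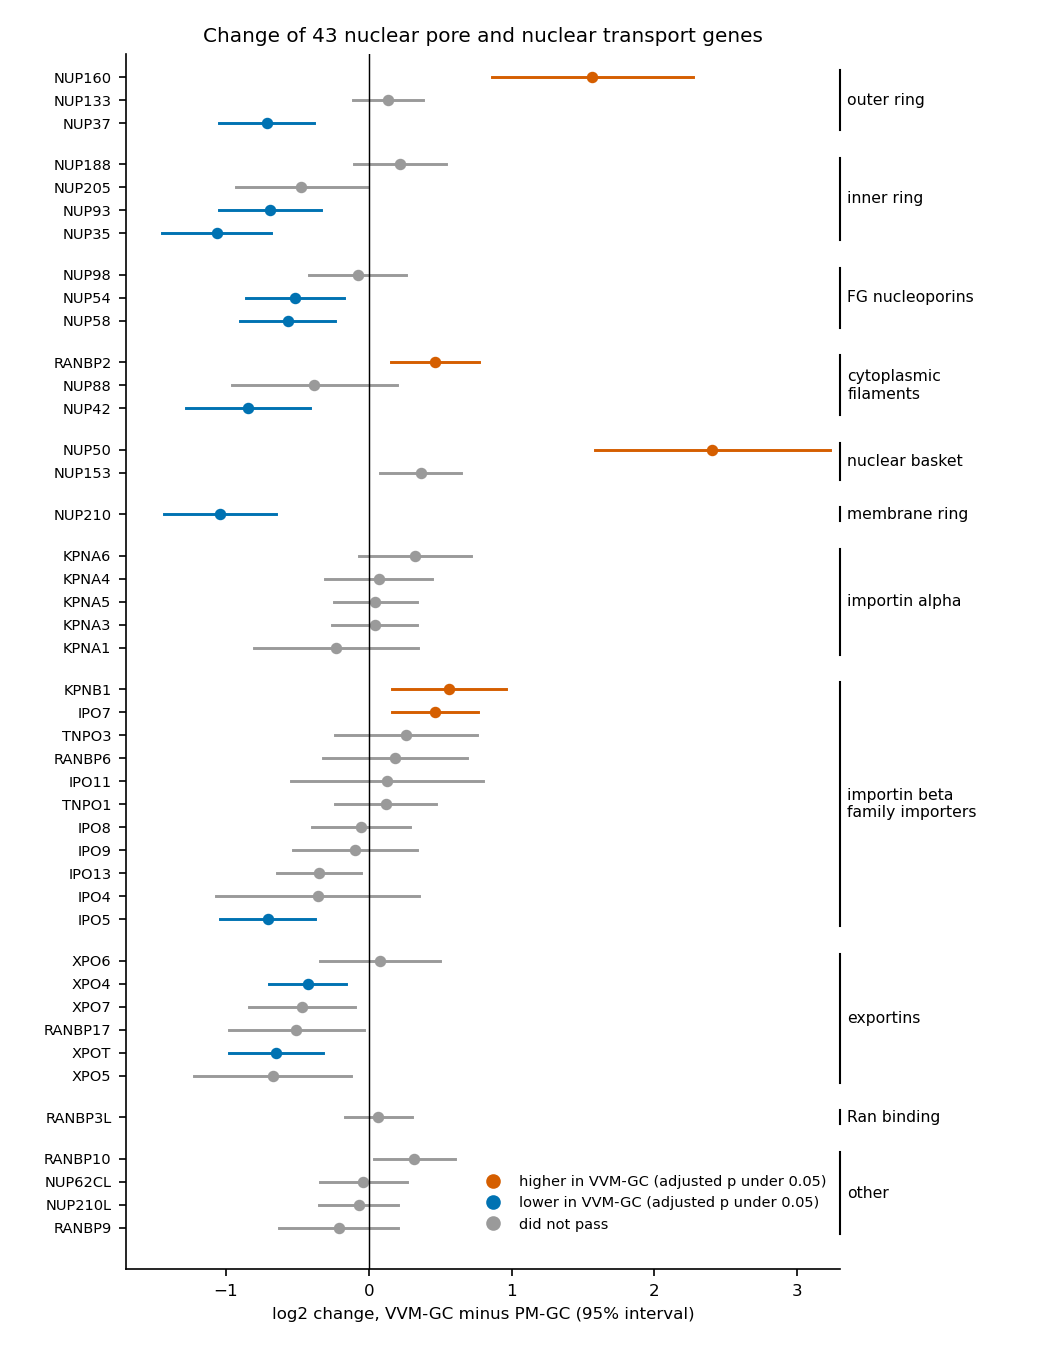
Log2 change (VVM-GC minus PM-GC, x axis) of the 43 genes with its 95% interval, grouped by role; orange is higher and blue lower in VVM-GC past the threshold, grey did not pass. NUP50 at 2.41 lies apart from the other genes, and the 10 that fell lie between -1.07 and -0.43.

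**Figure D2:**
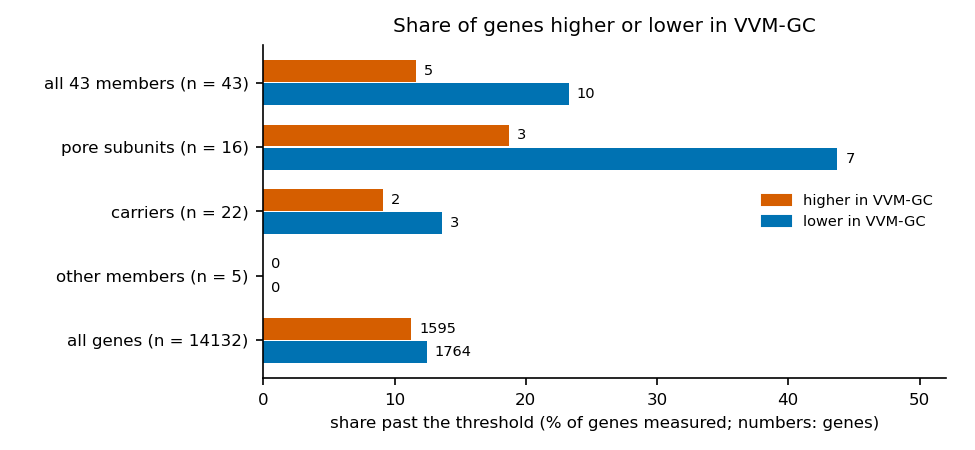
Share of measured genes (x axis, percent) that passed as higher (orange) or lower (blue) in VVM-GC, for all 43 genes, for the pore subunits, carriers and other members among them, and for all 14132 genes; the number beside each bar is the count of genes. The pore subunits had 3 higher and 7 lower of 16, the carriers 2 higher and 3 lower of 22.

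In the nuclear basket, which docks cargo complexes on the nuclear side, NUP50 read 10.73, 10.48, 9.98 and 11.46 on the 4 VVM-GC arrays, against 7.70, 8.57, 9.02 and 7.75 on the 4 PM-GC arrays. Every VVM-GC array lay above every PM-GC array, although each group spread over more than a log2 unit. The change was 2.41 (SE 0.37, adjusted p = 0.00125), from 1 probe set. NUP153, the basket protein that anchors NUP50, read 4.08, 4.12, 4.0004 and 4.18 in VVM-GC and 3.74, 4.0022, 3.70 and 3.48 in PM-GC, a signal below the array medians. PM-GC array 2 read just above VVM-GC array 3, so the groups overlapped, and the change of 0.36 (SE 0.13) did not pass (adjusted p = 0.068). It did in 4 of 17 alternatives. These were without PM-GC array 2 (0.45, adjusted p = 0.0302), after a further quantile normalization, with arrays centred on their medians and with an intensity trend in the fit.

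The Y-shaped complex of the outer ring was measured by 3 of its subunits, which went in different directions. NUP160, which forms an arm of the Y, read 6.86, 6.47, 5.77 and 6.32 in VVM-GC, against 4.79, 5.54, 4.77 and 4.04 in PM-GC, with no overlap (1.57, SE 0.31, adjusted p = 0.00567). NUP37, a small subunit bound to NUP160, read 8.61, 8.39, 8.39 and 8.65 in VVM-GC, against 8.94, 9.06, 9.49 and 9.40 in PM-GC, again with no overlap, and fell by 0.71 (SE 0.15, adjusted p = 0.00687). NUP133, at the stem of the Y, was near the bottom of the scale at 3.13 ± 0.05 in VVM-GC and 2.99 ± 0.15 in PM-GC (SD, n = 4) and did not pass (adjusted p = 0.408). The increase of NUP160 rests on 1 of its 3 probe sets. The mean of that set lay close to the array medians. The other two, below the array medians, changed by 0.05 and 0.435 and did not pass, and with the set that was brightest in PM-GC the gene had an adjusted p of 0.82.

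Of 4 inner ring subunits, which anchor the scaffold to the membrane and the channel, 2 fell (50.0%, beside 12.5% of all genes). NUP35, which binds the pore membrane, read 7.40, 7.55, 7.62 and 7.08 in VVM-GC, against 8.19, 8.36, 8.54 and 8.83 in PM-GC. Every VVM-GC array lay below every PM-GC array, and the decrease was 1.07 (SE 0.17, adjusted p = 0.00167). NUP93, the central linker of the inner ring, read 8.4018, 8.25, 8.60 and 7.92 in VVM-GC, against 8.87, 9.02, 9.20 and 8.85 in PM-GC, and fell by 0.69 (SE 0.16, adjusted p = 0.0111), with VVM-GC array 3 nearest to the PM-GC values. The large scaffold subunits NUP205 and NUP188 are related to each other and both bind NUP93. NUP205 was at 8.24 ± 0.33 in VVM-GC and 8.71 ± 0.32 in PM-GC (-0.47, adjusted p = 0.13), and NUP188 at 8.64 ± 0.25 in VVM-GC and 8.42 ± 0.14 in PM-GC (0.22, adjusted p = 0.317), SD, n = 4. Without VVM-GC array 3, which read highest of its group for NUP205, that gene passed at -0.62 (adjusted p = 0.0442). NUP210, a glycoprotein that spans the pore membrane, read 7.58, 7.38, 7.05 and 7.29 in VVM-GC, against 8.18, 8.83, 8.17 and 8.29 in PM-GC, with no overlap. It fell by 1.04 (SE 0.18, adjusted p = 0.00221), while its dimmer probe set, below the array medians, changed by -0.13.

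Of the FG nucleoporins that fill the channel, NUP58 and NUP54, partners in one complex, both fell, by 0.57 (SE 0.15, adjusted p = 0.021) and 0.52 (SE 0.15, adjusted p = 0.0345). NUP58 read between 7.63 and 7.90 in VVM-GC and between 7.96 and 8.52 in PM-GC, and NUP54 between 7.22 and 7.46 in VVM-GC and between 7.59 and 8.18 in PM-GC, so the groups were separate by narrow gaps. Both calls were sensitive to single arrays: that of NUP58 was lost without VVM-GC array 1 or PM-GC array 1, 2 or 3 (adjusted p of 0.0551 to 0.0602), and that of NUP54 without VVM-GC array 2, 3 or 4 or PM-GC array 3 or 4 (adjusted p of 0.0504 to 0.0921). NUP98, a mobile FG nucleoporin, was at 9.51 ± 0.20 in VVM-GC and 9.59 ± 0.23 in PM-GC, a difference of -0.08 with a 95% interval of -0.42 to 0.26 (adjusted p = 0.749). NUP62, NUP107 of the outer ring, importin KPNA2, exportin XPO1 and RANBP1 were not analysed here.

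On the cytoplasmic side, RANBP2, the giant protein of the filaments that binds RAN and attaches the modifier SUMO, rose, and NUP42, a small filament protein that holds the mRNA export factor GLE1, fell. RANBP2 read 9.46, 9.55, 9.11 and 9.42 in VVM-GC, against 8.76, 8.88, 9.18 and 8.85 in PM-GC. PM-GC array 3 lay above VVM-GC array 3, so the groups overlapped, and the change was 0.47 (SE 0.14, adjusted p = 0.0349). The call was lost without VVM-GC array 1, 2 or 4 or PM-GC array 1, 2 or 4 (adjusted p of 0.0724 to 0.0948), and with its 5 probe sets averaged (0.17, adjusted p = 0.295). It was also lost with an intensity trend in the fit. In humans RANBP2 has near-identical copies, and whether these probes bind such copies was not tested. NUP42 read 4.03, 4.44, 4.99 and 4.55 in VVM-GC, against 5.18, 5.21, 5.43 and 5.56 in PM-GC, with no overlap and a mean below the array medians, and fell by 0.85 (SE 0.19, adjusted p = 0.0113). NUP88, another filament protein, was at 7.79 ± 0.38 in VVM-GC and 8.17 ± 0.47 in PM-GC (SD, n = 4, adjusted p = 0.322).

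**Figure D3:**
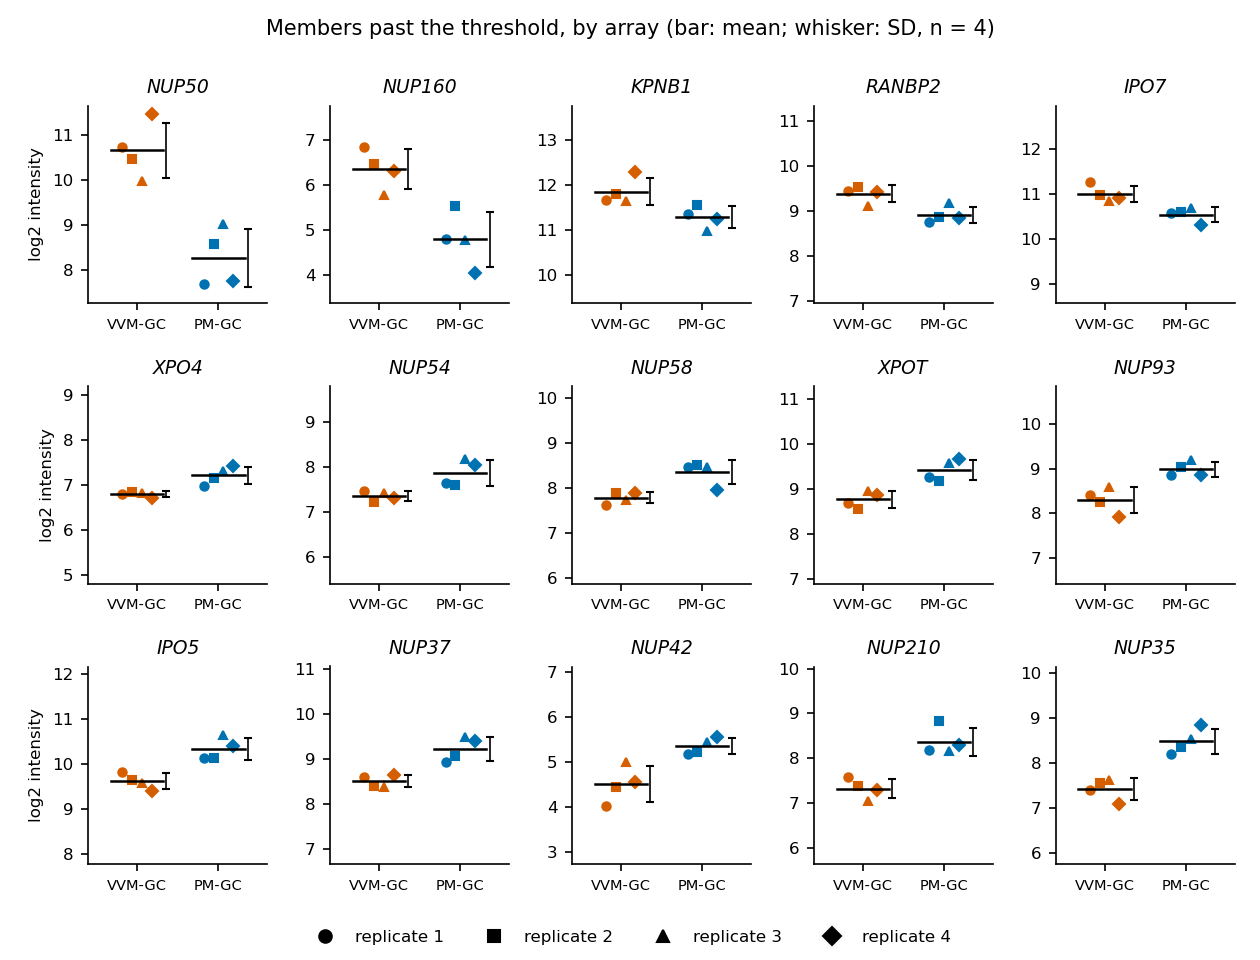
Log2 intensity (y axis) of the 15 genes past the threshold on each VVM-GC and PM-GC array; each panel spans the same height on the log2 scale, the bar is the mean, the whisker the SD (n = 4), and the marker shape is the replicate number. In 14 panels the groups do not overlap, and in that of RANBP2 they do.

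Among the 11 importers of the importin beta family, which bind cargo or an adaptor and pass through the FG meshwork, KPNB1 and IPO7 rose and IPO5 fell. These 3 of 11 (27.3%) are close to the 23.8% of all genes that passed. KPNB1, importin beta 1, which pairs with importin alpha for classical import, read 11.68, 11.80, 11.63 and 12.29 in VVM-GC, against 11.36, 11.56, 10.99 and 11.25 in PM-GC. The groups were separate, with VVM-GC array 4 above the rest of its group, and the change was 0.56 (SE 0.18, adjusted p = 0.0457). Its call was lost without VVM-GC array 1, 2 or 4 or PM-GC array 1, 3 or 4 (adjusted p of 0.0554 to 0.113), with changes of 0.41 to 0.65 over the 8 fits that each left out 1 array.

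IPO7, an importer of ribosomal proteins and, with KPNB1, of linker histone, read 11.27, 10.99, 10.84 and 10.92 in VVM-GC, against 10.58, 10.60, 10.70 and 10.30 in PM-GC, with no overlap (0.46, SE 0.13, adjusted p = 0.0326). Its call was lost without VVM-GC array 1 or 2 or PM-GC array 1, 2 or 4 (adjusted p of 0.0584 to 0.0835). After a further quantile normalization neither KPNB1, RANBP2 nor IPO7 passed (adjusted p = 0.0886, 0.111 and 0.0846). IPO5, an importer of ribosomal proteins and histones, read 9.83, 9.66, 9.59 and 9.41 in VVM-GC, against 10.15, 10.13, 10.65 and 10.40 in PM-GC, and fell by 0.71 (SE 0.15, adjusted p = 0.00734), again with no overlap. RANBP6, a close relative of IPO5, changed by 0.18 and IPO8, the close relative of IPO7, by -0.06; neither passed (adjusted p = 0.596 and 0.824).

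The transportins TNPO1, which imports RNA-binding proteins, and TNPO3, which imports splicing factors, did not pass. TNPO1 was at 11.10 ± 0.12 in VVM-GC and 10.98 ± 0.30 in PM-GC, a difference of 0.12 with a 95% interval of -0.24 to 0.47. TNPO3 read 9.92, 9.96, 9.92 and 9.04 in VVM-GC, against 9.60, 9.70, 9.23 and 9.26 in PM-GC. VVM-GC array 4 read lowest of all 8 for it, and without that array the change of 0.26 became 0.48 and passed (adjusted p = 0.0491). IPO13, which carries cargo both ways, differed by -0.35 (adjusted p = 0.0851) and passed at -0.45 without VVM-GC array 3 (adjusted p = 0.0263). IPO4, IPO9 and IPO11 differed by -0.36, -0.10 and 0.13, with intervals that span 0.

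None of the 5 importin alpha genes, the adaptors that read the classical nuclear localization signal and bind KPNB1, passed, beside 23.8% of all genes. KPNA6 was at 9.11 ± 0.20 in VVM-GC and 8.79 ± 0.32 in PM-GC (SD, n = 4), a difference of 0.33 with a 95% interval of -0.07 to 0.72. The differences in the brightest sets were 0.07 for KPNA4, 0.05 for KPNA5, 0.04 for KPNA3 and -0.23 for KPNA1. Dimmer sets of KPNA5 (-1.44) and KPNA1 (-0.72) were lower, as described below with a limit on the KPNA5 set. Among the 5, KPNA1 varied most within VVM-GC, where it read 10.12, 9.65, 9.29 and 8.74, around PM-GC values of 9.84, 9.78, 9.54 and 9.54. KPNA3 lay below the array medians.

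Of the 6 exportins and relatives, 2 fell, none rose and 4 did not pass; over all genes 12.5% fell and 11.3% rose. XPOT, which exports transfer RNA, read 8.69, 8.56, 8.96 and 8.87 in VVM-GC, against 9.27, 9.19, 9.57 and 9.66 in PM-GC, with no overlap, and fell by 0.65 (SE 0.15, adjusted p = 0.0102). XPO4, which exports the translation factor eIF5A and the signal transducer SMAD3, was at 6.79 ± 0.07 in VVM-GC and 7.22 ± 0.19 in PM-GC (SD, n = 4), with no overlap, and fell by 0.43 (SE 0.12, adjusted p = 0.0287). Its call was lost without VVM-GC array 1, 2 or 4 or PM-GC array 2, 3 or 4 (adjusted p of 0.0501 to 0.0735), and with its 2 probe sets averaged (-0.37, adjusted p = 0.069).

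XPO5, the exporter of microRNA precursors, read 6.81, 7.59, 7.83 and 7.03 in VVM-GC, against 7.78, 7.66, 8.18 and 8.33 in PM-GC. VVM-GC array 3 lay inside the PM-GC range, and the difference of -0.67 (SE 0.24) did not pass (adjusted p = 0.0768); without that array it was -0.84 (adjusted p = 0.0272). XPO7, an exportin with many cargoes, differed by -0.47 (adjusted p = 0.0696) and passed at -0.62 without PM-GC array 4 (adjusted p = 0.0075). Its relative RANBP17, below the array medians, differed by -0.51 (adjusted p = 0.114). XPO6, which exports actin, was at 11.05 ± 0.35 in VVM-GC and 10.98 ± 0.23 in PM-GC, a difference of 0.08 with a 95% interval of -0.34 to 0.50.

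The other 5 genes did not pass. RANBP3L, a relative of an export cofactor, and NUP62CL and NUP210L, which resemble pore subunits, were below the array medians, with differences of 0.07, -0.04 and -0.07. RANBP9 and RANBP10, named for RAN binding but known as scaffold proteins of a ubiquitin ligase complex, differed by -0.21 and 0.32. RANBP10 read 7.06, 7.25, 7.22 and 7.58 in VVM-GC, against 6.98, 6.90, 6.95 and 6.9962 in PM-GC; the groups did not overlap, but the adjusted p was 0.0988.

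Of the 43 genes, 26 had several probe sets, and the agreement between them differed from gene to gene. Over all 95 probe sets of the 43 genes, 7 were higher, 18 were lower and 26.3% passed when adjusted over all probe sets, beside 14.1% of the 52707 probe sets of the table. Of those 52707 sets, 27390 carry no gene symbol. The array medians are taken over all of them, whereas 29 of the 95 lay below these medians. The shares are therefore not matched for signal or annotation. IPO5 had 5 of 6 probe sets lower, with changes of -0.94 to -0.30. The 4 sets of IPO7 had changes of 0.45 to 0.68, and 3 of them passed. The 2 sets of KPNB1 changed by 0.56 and 0.59, and adjusted over all probe sets the dimmer one passed (adjusted p = 0.0171) and the brighter one did not (adjusted p = 0.0608). For RANBP2, 1 of 5 sets passed, and 1 had a change below 0 (-0.12). Of the 15 genes past the threshold, 7 had a single probe set (NUP50, NUP35, NUP37, NUP42, NUP54, NUP93 and XPOT) and 8 several; in 7 of these 8 all sets had the same sign, RANBP2 being the exception.

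For 3 genes a dimmer set was lower while the brightest did not pass. XPO5 had changes of -0.82 (adjusted p = 0.00208) and -0.52 (adjusted p = 0.0265) in its dimmer sets, both without overlap between the groups. The dimmer set of KPNA1 was at 7.40 ± 0.13 in VVM-GC and 8.12 ± 0.25 in PM-GC (SD, n = 4, change -0.72, limma adjusted p = 0.00751). The second set of KPNA5 was at 5.91 ± 0.24 in VVM-GC and 7.35 ± 0.29 in PM-GC (SD, n = 4, change -1.44, limma adjusted p = 0.000414). The identifier of that set carries the suffix Affymetrix gives to sets whose probes match several transcripts, so its signal may not be that of KPNA5 alone. Suffixes of the other probe sets are not given here, so no other set should be taken as specific on this ground. With all sets averaged, KPNA5 fell by 0.50 (adjusted p = 0.00264), KPNA1 by 0.47 (adjusted p = 0.0451) and XPO5 by 0.67 (adjusted p = 0.00876).

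**Figure D4:**
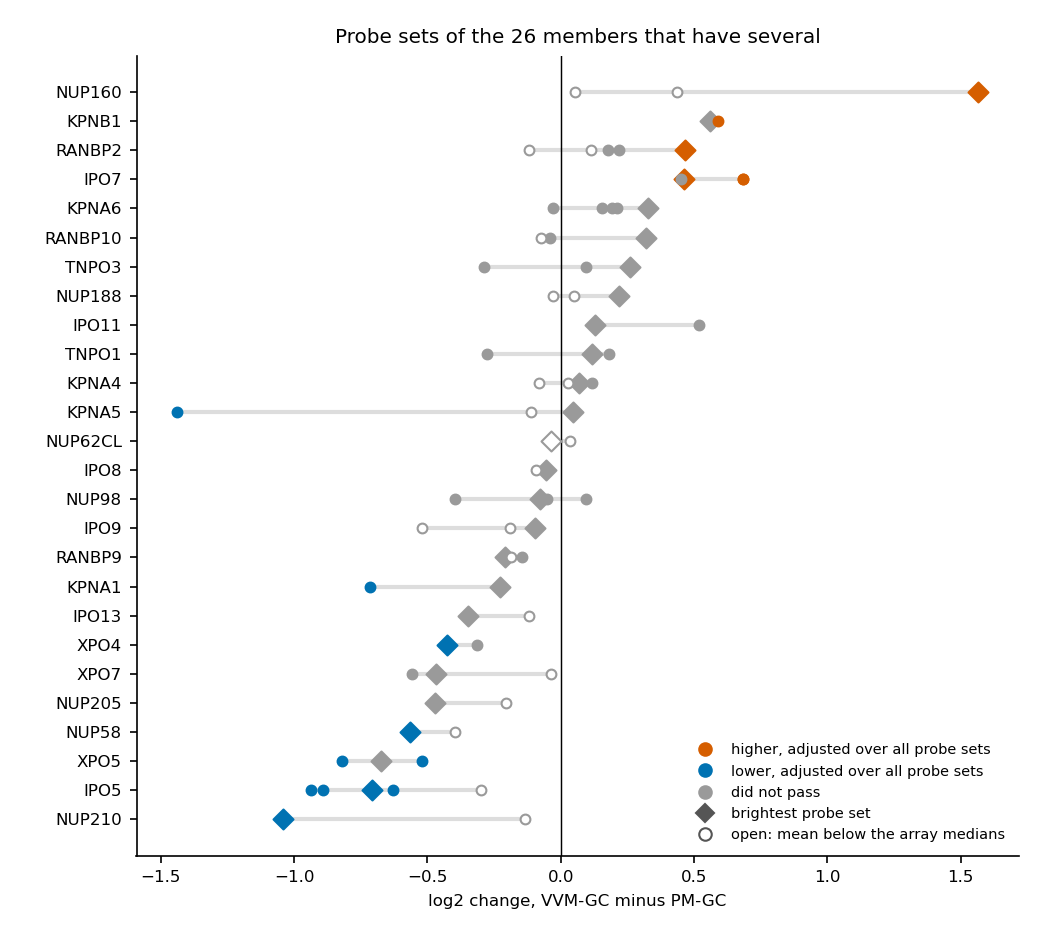
Log2 change (VVM-GC minus PM-GC, x axis) of every probe set of the 26 genes that have several; diamonds are the brightest set of a gene, open symbols have a mean below the array medians, and colours give the call adjusted over all probe sets. The sets of IPO7 and KPNB1 lie close together, and those of IPO5 share a sign but run from -0.94 to -0.30. In contrast, 1 set of NUP160 (1.57) and 1 of KPNA5 (-1.44) lie far from the others of their gene. The 2 sets of NUP210 lie at -1.04 and -0.13.

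Genes of the same machinery that the symbol rule leaves out were counted from 4 lists. Of 9 other nucleoporins and pore-associated proteins, 2 rose, 2 fell and 5 did not pass (44.4% past, beside 23.8% of all genes; median -0.09). SEC13, shared by the outer ring and the coat of secretory vesicles, rose by 0.69 (SE 0.14, adjusted p = 0.00545), in both of its probe sets. CENPF, a kinetochore protein that also binds the pore, fell by 2.03 (SE 0.13) and MAD1L1, a spindle checkpoint protein that docks at the basket, by 0.68 (SE 0.10); both act in cell division. TPR, the main filament of the basket, differed by -0.33 (adjusted p = 0.118), with all 5 sets below 0, and passed as lower after a further quantile normalization. RAE1 differed by -0.40 (adjusted p = 0.0913). It passed as lower after that normalization and with its 3 sets averaged (-0.40, limma adjusted p = 0.04). POM121C differed by -0.09 and passed as lower with its 3 sets averaged (-0.32, limma adjusted p = 0.0473). GLE1, the mRNA export factor that NUP42 holds, read 9.29, 9.44, 9.95 and 9.66 in VVM-GC, against 7.87, 7.66, 7.62 and 7.28 in PM-GC in its brightest set, and rose by 1.98 (SE 0.17, adjusted p = 5.75e-05). Its second set went the other way, at 8.17 ± 0.17 in VVM-GC and 8.86 ± 0.15 in PM-GC (SD, n = 4, change -0.69, limma adjusted p = 0.00469), and it was the brighter one in PM-GC. The average of its 3 sets changed by 0.28 (adjusted p = 0.0621).

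Of 11 genes of the RAN cycle and of cargo adaptors, none rose, 2 fell and 9 did not pass (18.2% past, below the 23.8% of all genes; median -0.22). RAN was at 12.33 ± 0.04 in VVM-GC and 12.80 ± 0.14 in PM-GC (SD, n = 4) and fell by 0.47 (SE 0.11, adjusted p = 0.0109), in both of its probe sets. RANGRF, which promotes release of nucleotide from RAN, fell by 0.58 (adjusted p = 0.0391); the call was lost without VVM-GC array 1, 2 or 4 or PM-GC array 2, 3 or 4, with arrays centred on their medians and when adjusted over all probe sets, with changes of -0.70 to -0.47 over all alternatives. CSE1L, the exportin that returns importin alpha to the cytoplasm, differed by -0.0023 (95% interval -0.28 to 0.28) in its brightest set. Its 4 sets differed in sign, with changes of -0.62 to 0.37, and none passed. RANGAP1, which makes RAN hydrolyse GTP, differed by -0.52 (limma adjusted p = 0.0807) in its brighter set. The dimmer set of RANGAP1 was lower, at -0.92 with no overlap (adjusted p = 0.0061), and the gene passed with both sets averaged (-0.72, adjusted p = 0.0148) and without VVM-GC array 2 or PM-GC array 3.

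Of 18 genes of mRNA export, 1 rose, 3 fell and 14 did not pass (22.2% past, close to the 23.8% of all genes; median -0.07). NXT1, the partner of the main mRNA exporter, fell by 1.58 (SE 0.18, adjusted p = 0.000204), whereas the exporter itself, NXF1, differed by -0.09 (adjusted p = 0.653). THOC3, a subunit of the THO complex that couples transcription to export, fell by 1.12 (SE 0.20) and the adaptor POLDIP3 by 0.45 (SE 0.10). ENY2, which belongs to an export complex and to a chromatin complex, rose by 0.64 (adjusted p = 0.0337); the call was lost when its 2 probe sets were averaged (0.36, adjusted p = 0.102), after a further quantile normalization and without VVM-GC array 3 or 4 or PM-GC array 1, 2 or 3.

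Of 13 genes of the nuclear envelope and lamina, 2 rose, 4 fell and 7 did not pass (15.4% higher and 30.8% lower, beside 11.3% and 12.5% of all genes; median -0.17). TMPO, a lamina-associated protein, was at 7.44 ± 0.14 in VVM-GC and 9.92 ± 0.20 in PM-GC (SD, n = 4) and fell by 2.48 (SE 0.13), with 5 of 6 probe sets lower and an average over all sets of -1.44. LMNB1, a B-type lamin, read 5.72, 6.44, 6.04 and 5.15 in VVM-GC, against 7.62, 8.70, 7.53 and 7.59 in PM-GC, with no overlap, and fell by 2.02 (SE 0.32, adjusted p = 0.00167). SYNE2, which links the envelope to the cytoskeleton, fell by 1.25 (SE 0.23), and NEMP1, an inner membrane protein, fell by 1.07; averaged over their probe sets they fell by 0.87 and 0.63. EMD, which encodes emerin, rose by 0.50 (adjusted p = 0.0198) and TMEM43, an emerin partner, by 0.43 (adjusted p = 0.0436). The call of EMD was lost without PM-GC array 3 and after a further quantile normalization. That of TMEM43 was lost without VVM-GC array 1, 2 or 3 or PM-GC array 1, 3 or 4, after that normalization, when adjusted over all probe sets and with an intensity trend in the fit. LMNA, which encodes the A-type lamins, varied widely in VVM-GC (9.54 ± 0.74, against 8.77 ± 0.13 in PM-GC) and did not pass in its brightest set (adjusted p = 0.107). Of its 6 sets 2 were higher, at 2.22 (adjusted p = 0.00148) and 1.38 (adjusted p = 0.0216), while the lowest change was -0.42; LMNA passed with all sets averaged (0.73, adjusted p = 0.0365), with the set brightest in VVM-GC and without VVM-GC array 4.

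**Figure D5:**
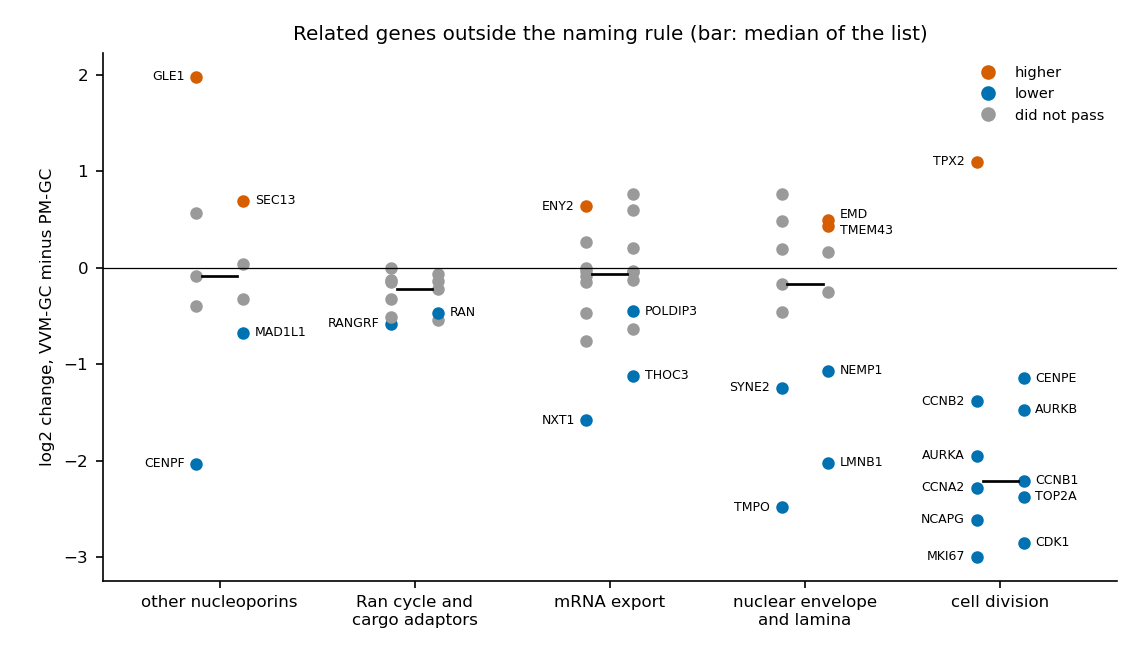
Log2 change (VVM-GC minus PM-GC, y axis) of related genes outside the symbol rule and of cell division genes; each point is 1 gene by its brightest probe set, coloured by call, with names for those past the threshold, and the bar is the median of the list. The list medians run between -0.22 and -0.07 for the 4 nuclear lists, and that of cell division is -2.21.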

How the data were processed

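Per the labels' protocols, granulosa cell RNA was extracted with a PicoPure kit and put through repeated linear amplification before biotin labelling. Per the submitters' processing notes, the authors made the deposited intensity values with Affymetrix Expression Console and RMA (robust multi-array average), with no version named. Array medians of the deposited values, which are linear, were 43.5 to 46.5; the only step applied here was log2. The number of arrays limits the precision.

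Of 52865 rows, 158 control and reporter rows were left out. GEO's platform annotation gave 1 symbol to 24956 of the other 52707 probe sets, several to 361 and none to 27390. Symbols were updated through gene IDs, which changed none of the 43. Each of 14132 genes took the probe set with the highest mean over 8 arrays, with no filter on low values. VVM-GC was compared with PM-GC by limma 3.58.1 (lmFit, eBayes) in R 4.3.3, Benjamini-Hochberg adjusted over all genes, at 0.05; the procedure was tested on simulated data. Lists and kinds of genes are given as counts and medians, without a test.

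The genes and lists were chosen with earlier results of these data known. Named genes are all 43, every array being given for the largest 5 increases and 7 decreases and for KPNB1, RANBP2, NUP153 and NUP93, plus up to 3 past the threshold per list and direction and the 2 brightest markers of each other cell type. Every other array value or list gene given was chosen after its values were seen. Of 18 alternative settings, 2 were chosen after seeing the data. Sequences and genome positions are not used here.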

Additional observations from a re-analysis of the deposited data

Results flagged for a closer look

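In 6 of the 86 gene and group combinations, 1 array lay far from the other 3 by Dixon's ratio of gap to range, at its 95% critical value; chance flags about 1 in 20. TNPO3 read 9.04 in VVM-GC array 4, with the other three between 9.92 and 9.96. NUP210L read 2.97 in VVM-GC array 3, with the others between 2.59 and 2.62, all near the bottom of the scale. In PM-GC array 4, NUP58 read 7.96 (the others 8.48 to 8.52) and XPO7 read 8.86 (the others 9.42 to 9.53). XPO6 read 11.32 in PM-GC array 3 (the others 10.84 to 10.89) and IPO13 read 6.93 in PM-GC array 2 (the others 7.01 to 7.02).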

How the results depend on the processing

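Over the 43 genes and 18 alternatives, 703 of 763 values kept their side of the threshold, 47 lost the call, 12 gained it and 1 reversed. In 12 genes that did not pass, the sign changed in 22 of the values. NUP50, NUP35, NUP210, NUP37, NUP42, IPO5, NUP93 and XPOT passed in every alternative in which they were tested. For the 17 genes with 1 probe set, settings that average or choose probe sets reuse the same values and cannot alter the change. Among these 17 are NUP50, NUP35, NUP37, NUP42, NUP93 and XPOT. Of the 43 genes, 5 were higher; quantile normalizing again gave 3, of which 2 were the same genes, and there were 2 with the replicate block and 2 to 5 with 1 array left out; the count of lower genes (10) lay between 7 and 12. The median change of the 43 genes was -0.19 after quantile normalization and -0.15 over the genes above the median signal. The reversed value was KPNA5, at -0.50 with all probe sets averaged. NUP160 lost its call with the probe set brightest in PM-GC (0.05). KPNB1 also lost its call with 32 added to each intensity (adjusted p = 0.0537), NUP54 lost it and NUP153 gained one with arrays centred on their medians (adjusted p = 0.0584 and 0.0491). All genes past the threshold numbered 3359, and 2512 to 3540 in the alternatives. Replicate numbers are shared between the groups. Same-numbered arrays correlated at -0.03 to 0.16 in their deviations from the group means, and differently numbered arrays at -0.21 to 0.16. The highest value of all was that of number 2 with number 2 (0.165). Such correlations cannot tell whether same-numbered samples share an animal. With the number as a block 3063 genes passed, and KPNB1, RANBP2, IPO7, NUP58 and XPO4 lost their calls (limma adjusted p = 0.0559, 0.093, 0.0548, 0.0509 and 0.0652). The causes of these shifts were not tested. Signals below the array medians limit what can be said of 8 of the 43 genes.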

Other observations

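Single arrays stood out for some of the 43 genes. VVM-GC array 4 read lowest of its group for 15 of them and highest for 7, among the latter NUP50 and KPNB1. VVM-GC array 3 read highest for 16 and lowest for 11, among the latter NUP50 and NUP160. The mean absolute deviation of an array from its group's mean, over the 43 genes, was 0.12 to 0.26 in VVM-GC and 0.16 to 0.21 in PM-GC. The SD was larger in VVM-GC for 24 of the 43 genes, and the median SD was 0.22 in VVM-GC and 0.24 in PM-GC; over all genes it was 0.21 in VVM-GC and 0.19 in PM-GC.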
